A study of Mus musculus with 10 samples.

Results

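The 8 genes described here encode the main costimulatory receptors of T cells: *Cd28*, *Icos*, *Cd27*, *Cd40lg*, *Tnfrsf4* (OX40), *Tnfrsf8* (CD30), *Tnfrsf9* (4-1BB) and *Tnfrsf18* (GITR). They were chosen by name, with earlier results of these data known. They are 8 of the 18193 genes with a named probe set on the arrays, represented by 13 of 34945 named probe sets. *Cd28* has 2 probe sets, *Icos* and *Tnfrsf9* have 3 each, and 5 genes have 1. CD40L, the product of *Cd40lg*, is formally a ligand that T cells display to CD40 on antigen-presenting cells, and is kept with the receptors because it is carried by the T cell.

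Expression was measured on 10 Affymetrix mouse arrays, 2 in each of 5 groups, as log2 values after robust multi-array averaging (RMA). Naïve CD4+ and naïve CD8+ T cells came from the spleens of wild-type C57BL/6 mice and were sorted as CD62L+ CD44- cells. The 3 cultured groups, sorted on day 25, were CD4+ effector memory cells (TEM), CD4+ memory cells and CD8+ TEM cells. Titles mark the TEM arrays EF and the memory arrays CM, and the labels do not say whether CM means central memory. The study defines TEM as CD62L- CD44+ and central memory as CD62L+ CD44+. A Foxo1 entry in the labels differs between the 2 arrays of CD4+ memory and of CD8+ TEM cells and was set aside. They arose from naïve T cells stimulated repeatedly with irradiated mouse B lymphoma cells that express the Epstein-Barr virus proteins LMP1 and LMP2A, with IL-2 added. The lymphoma line comes from mice in which Cγ1-Cre, active in germinal centre B cells, switches on the viral transgenes. No cultured group without lymphoma cells is used here, so day in culture, IL-2 and stimulation cannot be told apart. The labels do not say whether the 2 arrays of a group came from separate animals or cultures, so p describes the spread of array pairs, which may be technical. An exact permutation test of 2 arrays against 2 cannot give a p below 0.333, and tests were therefore taken from a limma model over all genes.

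A T cell needs a signal through its antigen receptor and a second, costimulatory one. CD28 is present on naïve T cells and binds CD80 and CD86, and its relative ICOS is known as a receptor induced by activation. CD27, OX40, CD30, 4-1BB and GITR belong to the tumour necrosis factor receptor superfamily, bind ligands of the TNF family and signal through TRAF adaptors to NF-κB. Of these, CD27 is known as a receptor of naïve and early activated cells, and OX40, 4-1BB and GITR as receptors that activation induces.

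The labelled cell types were checked first. *Cd4* stood between 11.50 and 11.89 on the CD4+ arrays and between 4.10 and 6.89 on the CD8+ arrays, and *Cd8b1* between 10.98 and 11.54 on the CD8+ arrays and between 4.94 and 5.63 on the CD4+ arrays. The medians of the 10 arrays over all probe sets lay between 4.65 and 4.75. The number of genes at least 2-fold apart between the 2 arrays of a group was 166 in CD8+ TEM, 319 in naïve CD4+, 487 in CD4+ TEM, 780 in naïve CD8+ and 1253 in CD4+ memory cells. Naïve CD8+ replicate 2 had more signal from other cell types than replicate 1, with a mean log2 level of 9 B cell markers of 5.67 against 4.31, of 8 myeloid markers of 5.67 against 4.60 and of 5 natural killer cell markers of 6.81 against 5.65. The 3' minus 5' signal of *Gapdh*, a measure of RNA integrity and labelling, was 2.42 to 2.75 on the naïve arrays and 0.91 to 1.72 on the cultured ones. These values move with culture, and their part in the results was not tested. In bulk samples, fewer cells of a type and less RNA per cell cannot be told apart.

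Between naïve and cultured cells some of the receptor genes rose and others fell. *Tnfrsf4*, *Tnfrsf9* and *Tnfrsf18* rose in all 3 cultured groups, by 2.36 to 5.50 on the log2 scale. *Cd27* fell in all 3, with log2 differences from -4.16 to -2.08. *Cd28* and *Cd40lg* fell in the CD4+ groups. Between CD4+ TEM and CD4+ memory cells only *Icos* passed the test, beside 5.52% of all genes. The plot of RMA values by array shows these levels.

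**Figure D1:**
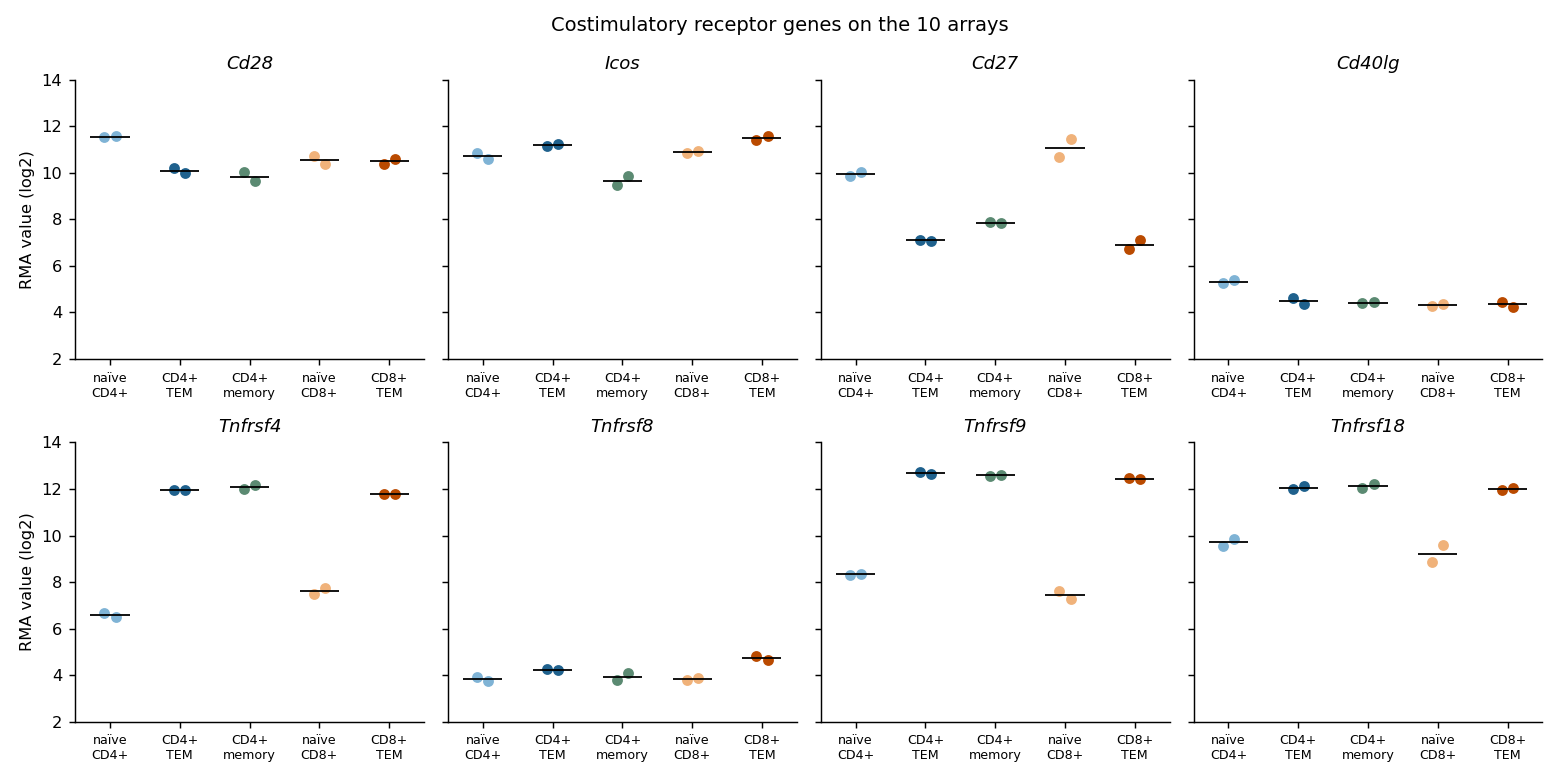
RMA values (log2, y axis) of the 8 genes on the 10 arrays, with 1 point per array and a horizontal line at the mean of the 2 arrays of a group (x axis). *Tnfrsf4*, *Tnfrsf9* and *Tnfrsf18* are higher on all 6 cultured arrays than on the 4 naïve ones, and *Cd27* is lower.

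*Tnfrsf4* encodes OX40, a receptor that prolongs the response of activated T cells. Its RMA values were 6.65 and 6.51 in naïve CD4+ cells, 11.96 and 11.94 in CD4+ TEM, 12.01 and 12.16 in CD4+ memory, 7.50 and 7.73 in naïve CD8+ and 11.79 and 11.78 in CD8+ TEM cells. The naïve and cultured arrays did not overlap, and within the naïve cells both CD8+ arrays lay above both CD4+ arrays. CD4+ TEM were 41.3-fold higher than naïve CD4+ cells (log2 difference 5.37, SE 0.14, adjusted p = 3.4e-07), the 155th largest rise of 18193 genes. CD4+ memory cells were 45.3-fold higher (5.50, SE 0.14, adjusted p = 4.20e-07) and CD8+ TEM 18.0-fold higher than their naïve cells (4.17, SE 0.14, adjusted p = 5.84e-07). Taking 1 probe set a gene, *Tnfrsf4* had the largest rise of the 8 in CD4+ cells, while another *Tnfrsf9* probe set, 1428034_a_at, rose by 5.55 in CD4+ TEM.

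*Tnfrsf9* encodes 4-1BB, a receptor best known for sustaining CD8+ T cells. The probe set with the highest mean read 8.32 and 8.37 in naïve CD4+ cells, 12.72 and 12.62 in CD4+ TEM, 12.57 and 12.61 in CD4+ memory, 7.63 and 7.29 in naïve CD8+ and 12.47 and 12.42 in CD8+ TEM cells. The 6 cultured arrays lay close together, and the naïve CD4+ arrays lay above the naïve CD8+ ones. CD8+ TEM were 31.7-fold higher than naïve CD8+ cells (4.99, SE 0.15, adjusted p = 3.77e-07), which made *Tnfrsf9* the 199th largest rise of all genes and, with 1 probe set a gene, the largest of the 8 in CD8+ cells. CD4+ TEM were 20.1-fold higher (4.33, SE 0.15, adjusted p = 7.40e-07) and CD4+ memory cells 19.0-fold higher (4.25, SE 0.15, adjusted p = 1.38e-06).

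*Tnfrsf18* encodes GITR, which regulatory T cells carry at rest and other T cells gain on activation. It read 9.57 and 9.84 in naïve CD4+ cells, 12.001 and 12.118 in CD4+ TEM, 12.04 and 12.20 in CD4+ memory, 8.87 and 9.58 in naïve CD8+ and 11.98 and 12.06 in CD8+ TEM cells. The cultured arrays did not overlap the naïve ones, and the widest pair was naïve CD8+. The rise was 5.12-fold in CD4+ TEM (2.36, SE 0.23, adjusted p = 0.000158), 5.34-fold in CD4+ memory (2.42, SE 0.23, adjusted p = 0.000186) and 6.91-fold in CD8+ TEM cells (2.79, SE 0.23, adjusted p = 3.95e-05). In CD4+ TEM, memory and CD8+ TEM cells 26.5%, 23.2% and 38.1% of all genes were called in either direction. Of 5 measured markers of regulatory T cells, 2 were higher and 1 lower in CD4+ TEM, and 3 higher and 1 lower in memory cells. In CD8+ TEM 2 of these markers were higher and none lower. Their mean log2 level was 6.73 to 7.22 in naïve CD4+, 8.59 to 8.94 in CD4+ TEM, 7.94 to 8.38 in memory, 5.61 to 6.12 in naïve CD8+ and 8.03 to 8.09 in CD8+ TEM cells. The defining marker *Foxp3* was lower in CD4+ TEM (-1.28, adjusted p = 0.00709) and memory cells (-1.19, 0.0118), while *Il2ra*, which activated T cells also express, was higher in CD4+ TEM (5.07, 4.11e-06). The part of regulatory T cells in the *Tnfrsf18* values was not tested.

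*Tnfrsf8*, the gene of CD30, had low values throughout. It read 3.91 and 3.74 in naïve CD4+ cells, 4.24 and 4.22 in CD4+ TEM, 3.79 and 4.09 in CD4+ memory, 3.80 and 3.88 in naïve CD8+ and 4.82 and 4.66 in CD8+ TEM cells, and never reached 6, the level used as a filter on low values. Both CD8+ TEM arrays lay above the other 8 arrays. In CD8+ TEM it was 1.87-fold higher than in naïve CD8+ cells (0.90, SE 0.15, adjusted p = 0.00188). This call was lost with array medians over the genes tested subtracted (0.37, adjusted p = 0.0668). Whether values this low are above background was not tested. The difference was 0.41 in CD4+ TEM (SE 0.15, adjusted p = 0.0924) and 0.12 in memory cells (adjusted p = 0.653), and neither passed the test.

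The chromosomal neighbourhood of these receptors is known: *Tnfrsf4* and *Tnfrsf18* are adjacent on chromosome 4, which also carries *Tnfrsf8* and *Tnfrsf9*, while *Cd28*, *Ctla4* and *Icos* lie in a row on chromosome 1, *Cd27* lies on chromosome 6 and *Cd40lg* on chromosome X. Promoter sequences were at hand for 5 of the 8 genes, those of *Tnfrsf4*, *Tnfrsf8*, *Tnfrsf9*, *Tnfrsf18* and *Cd27*. Sequences are shown for *Tnfrsf9* and *Tnfrsf18*, which rose in every cultured group, and for *Tnfrsf8*, whose values stayed low. Each is the 250 bases before an annotated start, 5' to 3' on the strand of the gene, from RefSeq on build GRCm38.p6. *Tnfrsf9* has 2 annotated starts, at chr4:150919905-150920154 (plus strand) for the first window and, further along the gene, chr4:150927749-150927998 (plus strand) for the second. The window of *Tnfrsf18* is chr4:156026072-156026321 (plus strand) and that of *Tnfrsf8* is chr4:145315165-145315414 (minus strand). Capitals mark matches on either strand to the AP-1 motif TGANTCA, the NFAT core GGAAA or the NF-κB consensus, the binding sequences of factors that T cell activation switches on.
Tnfrsf9, first start: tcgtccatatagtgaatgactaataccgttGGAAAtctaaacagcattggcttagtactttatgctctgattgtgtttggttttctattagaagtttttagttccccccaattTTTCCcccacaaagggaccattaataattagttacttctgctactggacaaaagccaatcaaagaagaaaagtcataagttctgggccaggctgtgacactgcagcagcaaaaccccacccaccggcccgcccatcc
Tnfrsf9, second start: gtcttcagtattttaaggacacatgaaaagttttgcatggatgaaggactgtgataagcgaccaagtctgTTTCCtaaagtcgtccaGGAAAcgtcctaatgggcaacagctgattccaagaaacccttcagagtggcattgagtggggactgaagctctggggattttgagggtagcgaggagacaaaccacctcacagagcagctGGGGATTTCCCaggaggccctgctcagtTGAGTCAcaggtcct
Tnfrsf18: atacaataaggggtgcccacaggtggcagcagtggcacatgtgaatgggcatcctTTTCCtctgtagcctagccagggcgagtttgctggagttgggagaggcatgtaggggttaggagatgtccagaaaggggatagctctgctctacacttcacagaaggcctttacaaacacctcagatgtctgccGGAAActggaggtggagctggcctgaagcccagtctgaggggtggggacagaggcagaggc
Tnfrsf8: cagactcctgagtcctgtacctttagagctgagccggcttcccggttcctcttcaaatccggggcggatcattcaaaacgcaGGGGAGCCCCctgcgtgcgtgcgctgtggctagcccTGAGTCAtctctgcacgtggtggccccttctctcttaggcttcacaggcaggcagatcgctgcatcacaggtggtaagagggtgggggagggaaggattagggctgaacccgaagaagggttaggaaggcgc

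The second *Tnfrsf9* window holds an AP-1 match 15 bases before the start, 3 NFAT cores and a pair of overlapping NF-κB matches at 43 and 42 bases before the start, and 1 of the NFAT cores lies inside them. The *Tnfrsf8* window holds 1 AP-1 match, 132 bases before the start, and 1 NF-κB match, 168 bases before it. The first *Tnfrsf9* window and that of *Tnfrsf18* hold 2 NFAT cores each, and those of *Tnfrsf4* and *Cd27* hold 1 each, with no AP-1 or NF-κB match in these 250 bases. Over 32851 annotated starts, 6.75% of such windows held the AP-1 motif, 55.6% the NFAT core and 3.90% the NF-κB consensus. Matches were thus present both where the gene rose and where its values stayed low, and they describe letters, not binding.

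With 1 probe set a gene, *Cd27* had the largest fall of the 8 in each cultured group, although the second *Cd28* probe set fell further in CD4+ cells (-3.17 in CD4+ TEM and -3.13 in memory cells). Its product binds CD70 and supports the survival of newly activated cells. It read 9.86 and 10.02 in naïve CD4+ cells, 7.13 and 7.06 in CD4+ TEM, 7.88 and 7.84 in CD4+ memory, 10.69 and 11.46 in naïve CD8+ and 6.72 and 7.12 in CD8+ TEM cells. All cultured arrays lay below all naïve ones, the memory arrays lay above both TEM groups, and the widest pair was naïve CD8+. *Cd27* was 7.17-fold lower in CD4+ TEM (-2.84, SE 0.25, adjusted p = 9.03e-05), the 116th largest fall of all genes, and 17.8-fold lower in CD8+ TEM (-4.16, SE 0.25, adjusted p = 8.56e-06), the 66th largest. In memory cells it was 4.22-fold lower than in naïve CD4+ cells (-2.08, SE 0.25, adjusted p = 0.000664).

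*Cd28* encodes the receptor that gives naïve T cells their first costimulatory signal. The probe set with the highest mean read 11.54 and 11.56 in naïve CD4+ cells, 10.19 and 9.99 in CD4+ TEM, 10.03 and 9.65 in CD4+ memory, 10.71 and 10.38 in naïve CD8+ and 10.40 and 10.58 in CD8+ TEM cells. Naïve CD4+ arrays lay above all others, and the CD8+ pairs overlapped. The fall was 2.75-fold in CD4+ TEM (-1.46, SE 0.19, adjusted p = 0.000692) and 3.27-fold in memory cells (-1.71, SE 0.19, adjusted p = 0.000384). In CD8+ TEM the difference from naïve cells was -0.06, with a 95% confidence interval from -0.49 to 0.37 (adjusted p = 0.854). By this probe set a fall or a rise within that interval remains possible. With array medians over the genes tested subtracted, however, *Cd28* was lower in CD8+ TEM (-0.59, adjusted p = 0.0314).

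*Cd40lg* had low values and fell in CD4+ cells. It read 5.27 and 5.40 in naïve CD4+ cells, 4.63 and 4.36 in CD4+ TEM, 4.39 and 4.44 in CD4+ memory, 4.29 and 4.35 in naïve CD8+ and 4.46 and 4.24 in CD8+ TEM cells. Naïve CD4+ arrays stood above the other 8, which overlapped. CD4+ TEM were 1.78-fold lower (-0.83, SE 0.15, adjusted p = 0.00421) and memory cells 1.89-fold lower (-0.92, SE 0.15, adjusted p = 0.00323). The CD8+ difference was 0.03 (95% interval -0.31 to 0.38, adjusted p = 0.903), but with array medians over the genes tested subtracted *Cd40lg* was lower in CD8+ TEM as well (-0.50, adjusted p = 0.0228). *Cd40lg* stayed under 6 on every array, and its group means outside naïve CD4+ cells lay between the 36.3rd and 39.1st percentile of all genes, so whether those values are above background was not tested.

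*Icos* encodes the inducible relative of CD28. The probe set with the highest mean read 10.87 and 10.58 in naïve CD4+ cells, 11.17 and 11.23 in CD4+ TEM, 9.46 and 9.87 in CD4+ memory, 10.86 and 10.93 in naïve CD8+ and 11.42 and 11.59 in CD8+ TEM cells. Both TEM groups lay above every naïve array, and both memory arrays lay below them. *Icos* was 2.08-fold lower in memory cells than in naïve CD4+ cells (-1.06, SE 0.18, adjusted p = 0.00366) and 1.53-fold higher in CD8+ TEM than in naïve CD8+ cells (0.61, SE 0.18, adjusted p = 0.0267). This last call was lost when any of the 4 CD8+ arrays was left out: the difference was 0.57 without naïve CD8+ replicate 1 (adjusted p = 0.100), 0.65 without replicate 2 (0.0664), 0.69 without CD8+ TEM replicate 1 (0.0648) and 0.53 without replicate 2 (0.148). In CD4+ TEM the difference was 0.47 (SE 0.18, adjusted p = 0.0904), and it passed with the mean of the *Icos* probe sets (0.51, 0.0294). With array medians over the genes tested subtracted it was -0.12 in CD4+ TEM (adjusted p = 0.568), and the CD8+ TEM call was lost (0.08, adjusted p = 0.698). The fall in memory cells did not pass by probe set 1421931_at (-0.50, adjusted p = 0.134).

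Set against the whole array, 6 of the 8 genes passed the test in CD4+ TEM against naïve CD4+ cells, 3 higher and 3 lower, where 26.5% of all genes passed, 16.4% higher and 10.1% lower. In CD8+ TEM against naïve CD8+ cells 6 passed, 5 higher and 1 lower, where 38.1% of all genes did, 20.9% higher and 17.2% lower. In CD4+ memory against naïve CD4+ cells 7 passed, 3 higher and 4 lower, beside 23.2% of all genes, 13.5% higher and 9.78% lower. The median log2 difference of the 8 was 0.44, 0.76 and -0.40 in these comparisons, against 0.02, 0.06 and 0.08 over all genes. The CD4+ TEM and memory comparisons share the naïve CD4+ arrays. Because the 8 genes were chosen with earlier results of these data known, these counts and medians describe the list and do not test it. The plot of log2 differences shows each gene's value with its interval in the comparisons of cultured with naïve cells. It also shows the CD4+ TEM change minus the CD8+ TEM change.

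**Figure D2:**
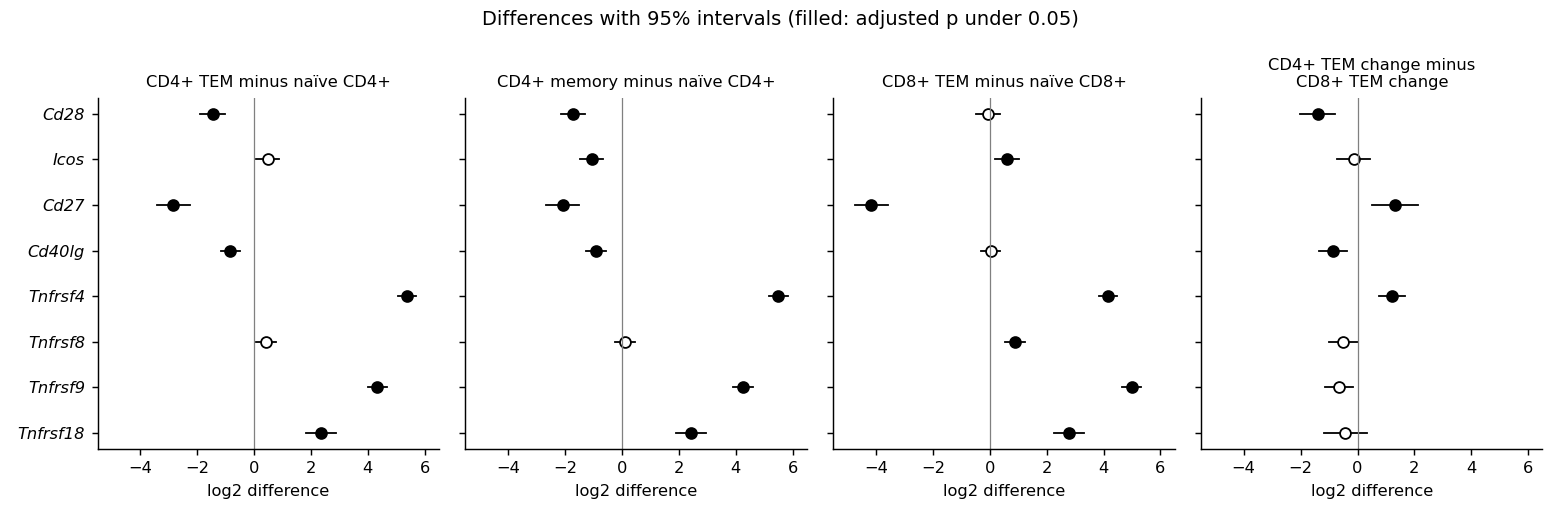
Log2 differences of the 8 genes between groups in the limma fit, with 95% confidence intervals as bars. *Tnfrsf4*, *Tnfrsf9* and *Tnfrsf18* lie above 0 and *Cd27* below 0 in each comparison of cultured with naïve cells, while *Cd28* lies below 0 in CD4+ cells and has an interval that includes 0 in CD8+ cells.

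Whether the CD4+ and CD8+ lineages changed alike was asked by testing the CD4+ change minus the CD8+ change. It passed for 4 of the 8 genes, 2 higher and 2 lower, where 12.5% of all genes passed, 8.03% higher and 4.49% lower. *Tnfrsf4* rose by 1.20 more in CD4+ cells (SE 0.20, adjusted p = 0.00807). *Cd28* fell by 1.40 more in CD4+ cells (value -1.40, SE 0.26, adjusted p = 0.0133). *Cd27* fell by 1.31 less in CD4+ cells (value 1.31, SE 0.35, adjusted p = 0.0485), and the value for *Cd40lg* was -0.87 (SE 0.21, adjusted p = 0.0347). The values for *Tnfrsf9* (-0.66, adjusted p = 0.0860), *Tnfrsf8* (-0.50, 0.193), *Tnfrsf18* (-0.43, 0.474) and *Icos* (-0.14, 0.802) did not pass. That of *Tnfrsf9* did pass by probe set 1428034_a_at (-0.96, 0.0360) and with a spread that depends on the level (-0.66, 0.0365). It also passed with quantile normalization over the genes tested (-0.98, 0.0348), and was -0.83 without naïve CD8+ replicate 1. That of *Icos* passed with the mean of its probe sets (-0.90, 0.0261).

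The difference for *Tnfrsf4* stayed past the threshold when each array was left out in turn. That for *Cd28* was lost without naïve CD4+ replicate 2 (-1.39, adjusted p = 0.050), CD4+ TEM replicate 2 (-1.30, 0.0510) or CD8+ TEM replicate 2 (-1.31, 0.0620). That for *Cd27* was lost without any array except naïve CD8+ replicate 1, with adjusted p between 0.0563 and 0.161 in those cases, and without naïve CD8+ replicate 2, the array with more signal from other cell types, it was 0.93 (0.0621). It was also lost with quantile normalization repeated (0.0518), with array medians subtracted (0.0619) and with only the groups compared (0.0563). That for *Cd40lg* was lost without either naïve CD4+ array, without CD4+ TEM replicate 2 and without any CD8+ array, with adjusted p between 0.0537 and 0.129, and with a spread that depends on the level (0.0663).

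The lineages differed already in the naïve state. Between naïve CD8+ and naïve CD4+ cells 5 of the 8 genes passed, 2 higher and 3 lower, where 20.5% of all genes did, 13.9% higher and 6.65% lower. *Tnfrsf4* was 2.04-fold higher (1.03, SE 0.14, adjusted p = 0.00174) and *Cd27* 2.20-fold higher in naïve CD8+ cells (1.14, SE 0.25, adjusted p = 0.0147), and the latter was lost without naïve CD4+ replicate 1 (1.06, adjusted p = 0.0870) or replicate 2 (1.22, 0.0591). *Cd40lg* was 2.02-fold lower (-1.01, SE 0.15, adjusted p = 0.00259), *Cd28* 2.0-fold lower (-1.0, SE 0.19, adjusted p = 0.00695) and *Tnfrsf9* 1.84-fold lower (-0.88, SE 0.15, adjusted p = 0.00468), and the last call was lost with the mean of its probe sets (-0.30, 0.125). *Tnfrsf18* differed by -0.48 (adjusted p = 0.208), and by -0.83 (0.0212) without naïve CD8+ replicate 2.

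Between CD8+ TEM and CD4+ TEM cells no member passed limma's test with 1 probe set a gene, and 1 of 8, *Tnfrsf8*, had an unadjusted p under 0.05 (0.51, SE 0.15, adjusted p = 0.0979). Here 5.72% of all genes passed, 3.53% higher and 2.19% lower. The intervals of the difference ran from -0.49 to 0.15 for *Tnfrsf4*, from -0.57 to 0.12 for *Tnfrsf9*, from -0.57 to 0.49 for *Tnfrsf18*, from -0.75 to 0.40 for *Cd27* and from -0.03 to 0.83 for *Cd28*. These intervals hold for the probe set used. *Tnfrsf9* probe set 1428034_a_at was higher in CD8+ TEM (1.08, adjusted p = 0.0107), the opposite sign, and *Cd28* 1417597_at (0.96, 0.116) and *Icos* 1421930_at (0.48, 0.0766) were at an unadjusted p under 0.05.

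Between CD4+ TEM and CD4+ memory cells of the same day, 1 of 8 passed, beside 5.52% of all genes, 3.89% higher and 1.64% lower. This was *Icos*, 2.90-fold higher in TEM (1.53, SE 0.18, adjusted p = 0.00253), and the call held whichever array was left out, with values from 1.33 to 1.74, but was lost with only these 2 groups in the fit (adjusted p = 0.0639). *Cd27* was lower in TEM by a value that did not pass (-0.77, SE 0.25, adjusted p = 0.135), and did pass without either naïve CD8+ array (adjusted p = 0.0470). The intervals for *Tnfrsf4* (-0.46 to 0.19), *Tnfrsf9* (-0.26 to 0.43) and *Tnfrsf18* (-0.59 to 0.47) contain 0.

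Where a gene has several probe sets, they were compared with each other, since they can read different transcript ends. The second *Cd28* probe set, 1417597_at, showed a steeper fall than the first: it read 10.26 and 10.21 in naïve CD4+ cells, 7.02 and 7.12 in CD4+ TEM and 7.46 and 6.75 in memory cells, a log2 difference of -3.17 in CD4+ TEM (adjusted p = 0.000172) and -3.13 in memory cells (0.000250). Its CD8+ difference was -0.52 (0.233), from values of 8.95 and 8.15 in naïve and 8.05 and 8.0 in TEM cells. Both probe sets thus called a fall in CD4+ cells and none in CD8+ cells. Here p-values were adjusted over 34945 probe sets, of which 24.7% passed in CD4+ TEM, 34.6% in CD8+ TEM and 21.3% in memory cells against naïve cells, 9.63% for the difference between lineages, 4.18% between CD4+ TEM and memory cells, 17.4% between the naïve groups and 5.11% between the TEM groups.

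The 3 *Icos* probe sets all gave a higher level in CD4+ TEM than memory cells, with differences of 1.53, 0.72 and 1.46 (adjusted p = 0.00387, 0.0213 and 0.00845 for 1436598_at, 1421930_at and 1421931_at). They differed in size for CD8+ cells: 1421930_at rose by 1.33 (0.000119) and 1421931_at by 2.29 (9.02e-05), against 0.61 (0.0327) for 1436598_at in the same fit. The CD4+ minus CD8+ change was -1.24 (0.00693) and -1.33 (0.0299) for these, and -0.14 (0.820) for 1436598_at. Naïve CD8+ cells were lower than naïve CD4+ cells by the same probe sets (-0.76 and -0.95), while 1436598_at gave 0.17. In CD4+ TEM against naïve CD4+ cells 1421931_at rose by 0.96 (0.0115), against 0.09 (0.704) for 1421930_at. The fall in memory cells against naïve CD4+ cells was not called by 1421931_at (-0.50, 0.134). So the statement for *Icos* depends on the probe set for both CD4+ comparisons with naïve cells, between naïve groups and for the difference between lineages. It does not for TEM against memory cells.

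*Tnfrsf9* probe set 1428034_a_at had a wider range than the probe set used above, at 3.84 and 3.63 in naïve CD4+ cells, 9.32 and 9.26 in CD4+ TEM, 9.0 and 9.16 in memory, 3.83 and 3.90 in naïve CD8+ and 10.23 and 10.51 in CD8+ TEM cells. It gave differences of 5.55 in CD4+ TEM, 5.34 in memory and 6.51 in CD8+ TEM cells, all called. CD8+ TEM lay above CD4+ TEM by 1.08 (SE 0.16, adjusted p = 0.0107), whereas 1460469_at gave -0.23 and no call. The third probe set, 1421481_at, read between 4.44 and 4.90 on all arrays and showed no call (differences 0.11, 0.12 and 0.16). The plot of all probe sets of *Cd28*, *Icos* and *Tnfrsf9* shows these readings.

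**Figure D3:**
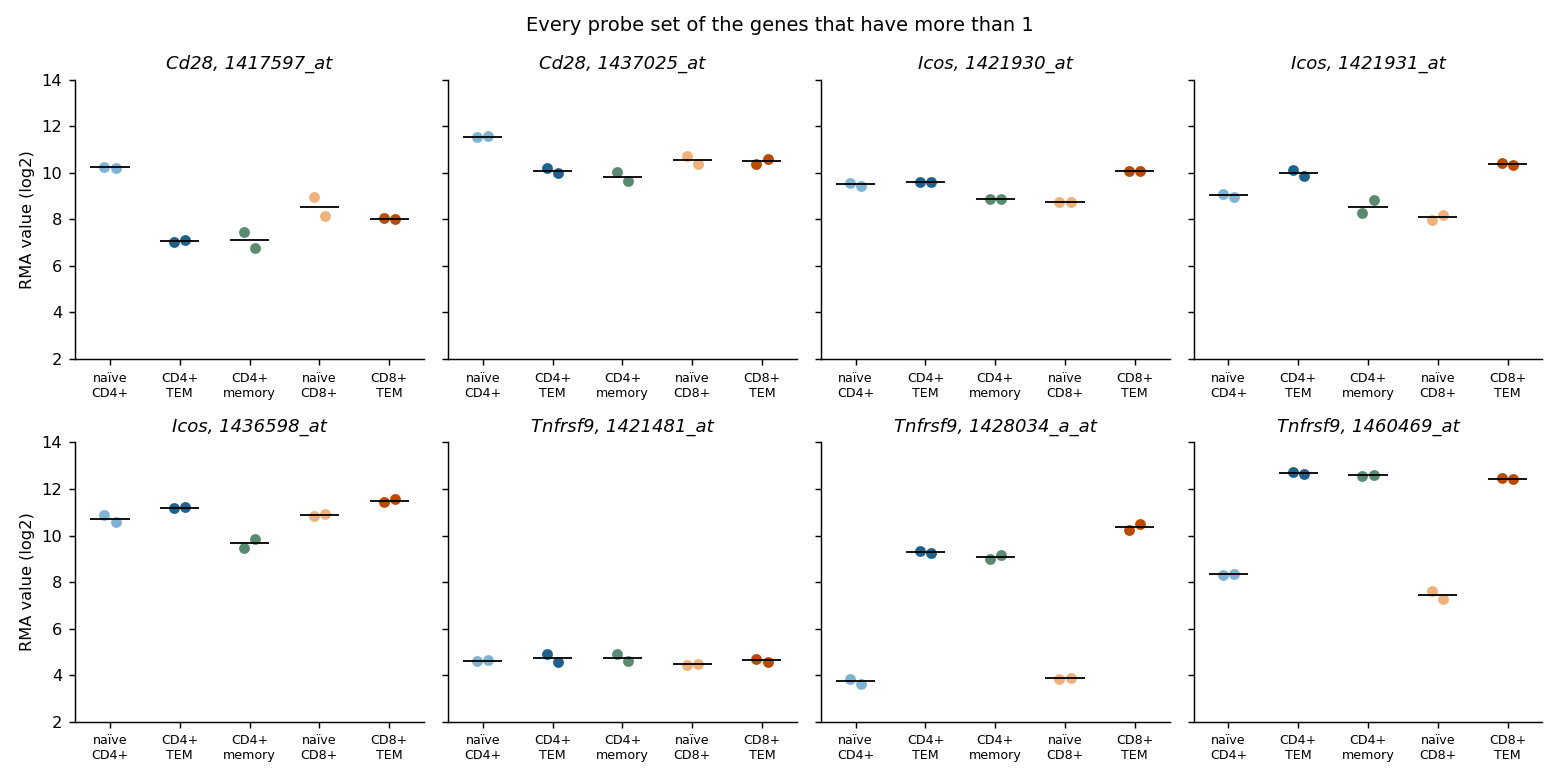
RMA values (log2) of every probe set of *Cd28*, *Icos* and *Tnfrsf9* by group, with 1 point per array. The *Tnfrsf9* probe set 1421481_at stays between 4.44 and 4.90 while the other two rise in every cultured group.

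The ligands and binding partners of the receptors were measured on the same arrays. Of 9 listed, 8 had a named probe set, and *Tnfsf18* was not measured. In CD4+ TEM against naïve CD4+ cells 7 rose and none fell, where 16.4% of all genes were called higher and 10.1% lower. In CD8+ TEM 5 rose and 2 fell (20.9% and 17.2% of all genes). In memory cells 6 rose and none fell (13.5% and 9.78% of all genes). *Tnfsf4*, the OX40 ligand, went from 3.08 and 3.45 in naïve CD4+ cells to 8.85 and 8.87 in CD4+ TEM and 8.20 and 7.63 in memory cells, and from 3.04 and 3.41 in naïve CD8+ to 8.38 and 8.10 in CD8+ TEM cells (differences 5.59, 4.65 and 5.01, adjusted p = 2.01e-06, 7.58e-06 and 2.84e-06). *Tnfsf9*, the 4-1BB ligand, rose by 3.77 in CD4+ TEM (3.45e-05), 3.79 in memory (4.64e-05) and 2.34 in CD8+ TEM cells (0.000276). The receptor and ligand genes of each of these pairs both read higher on the cultured arrays. The study's introduction names the ligands of CD27, OX40 and 4-1BB among those that LMP1 signalling raises, and the lymphoma cells of the cultures express LMP1. Which cells the ligand RNA came from was not tested.

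*Cd70*, the CD27 ligand, rose by 2.81 (adjusted p = 0.00204), 2.92 (0.00210) and 2.61 (0.00180) in CD4+ TEM, memory and CD8+ TEM cells, while *Cd27* fell. *Cd40*, the receptor of CD40L, rose by 3.37 (5.66e-05), 4.59 (1.53e-05) and 3.51 (2.99e-05). *Cd80*, which binds CD28, rose by 3.68 (2.76e-05), 1.91 (0.00120) and 4.90 (4.79e-06), and was higher in CD4+ TEM than memory cells by 1.77 (0.00755). *Cd86*, the other CD28 ligand, differed by -0.14 in CD4+ TEM (0.881) and fell by 1.85 in CD8+ TEM cells (0.0188).

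*Icosl*, the ICOS ligand, rose in CD4+ TEM by 0.91 (adjusted p = 0.00916) and in memory cells by 1.30 (0.00198), and fell by 1.01 in CD8+ TEM cells (0.00352), and the difference between lineages was 1.92 (0.00454). *Tnfsf8*, the CD30 ligand, rose in CD4+ TEM by 1.21 (0.0289), with 0.75 in CD8+ TEM (0.120) and 0.93 in memory cells (0.0833). B cells and other antigen-presenting cells also make several of these ligands. In CD4+ TEM, CD8+ TEM and memory cells 16.4%, 20.9% and 13.5% of all genes were called higher than in naïve cells. Of 9 measured B cell markers, 5 were higher in each TEM group and 7 in memory cells than in naïve cells. Their mean log2 level was 3.78 to 3.87 in naïve CD4+, 4.31 to 5.67 in naïve CD8+, 6.21 to 6.54 in CD4+ TEM, 6.80 to 7.38 in memory and 6.18 to 6.63 in CD8+ TEM cells. Among the defining markers, *Pax5* stood between 3.58 and 4.33 on every array and *Ms4a1* at 3.26 and 3.23 in naïve CD4+, 4.41 and 4.03 in CD4+ TEM, 5.88 and 6.78 in memory, 3.15 and 7.02 in naïve CD8+ and 3.21 and 3.76 in CD8+ TEM cells, whereas *Cd79b* was 4.05 and 4.64 in naïve CD4+, 7.88 and 8.75 in naïve CD8+ and 8.41 to 9.60 on the cultured arrays. The cultures held B lymphoma cells before sorting, and the part of B cell RNA in the ligand values was not tested.

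**Figure D4:**
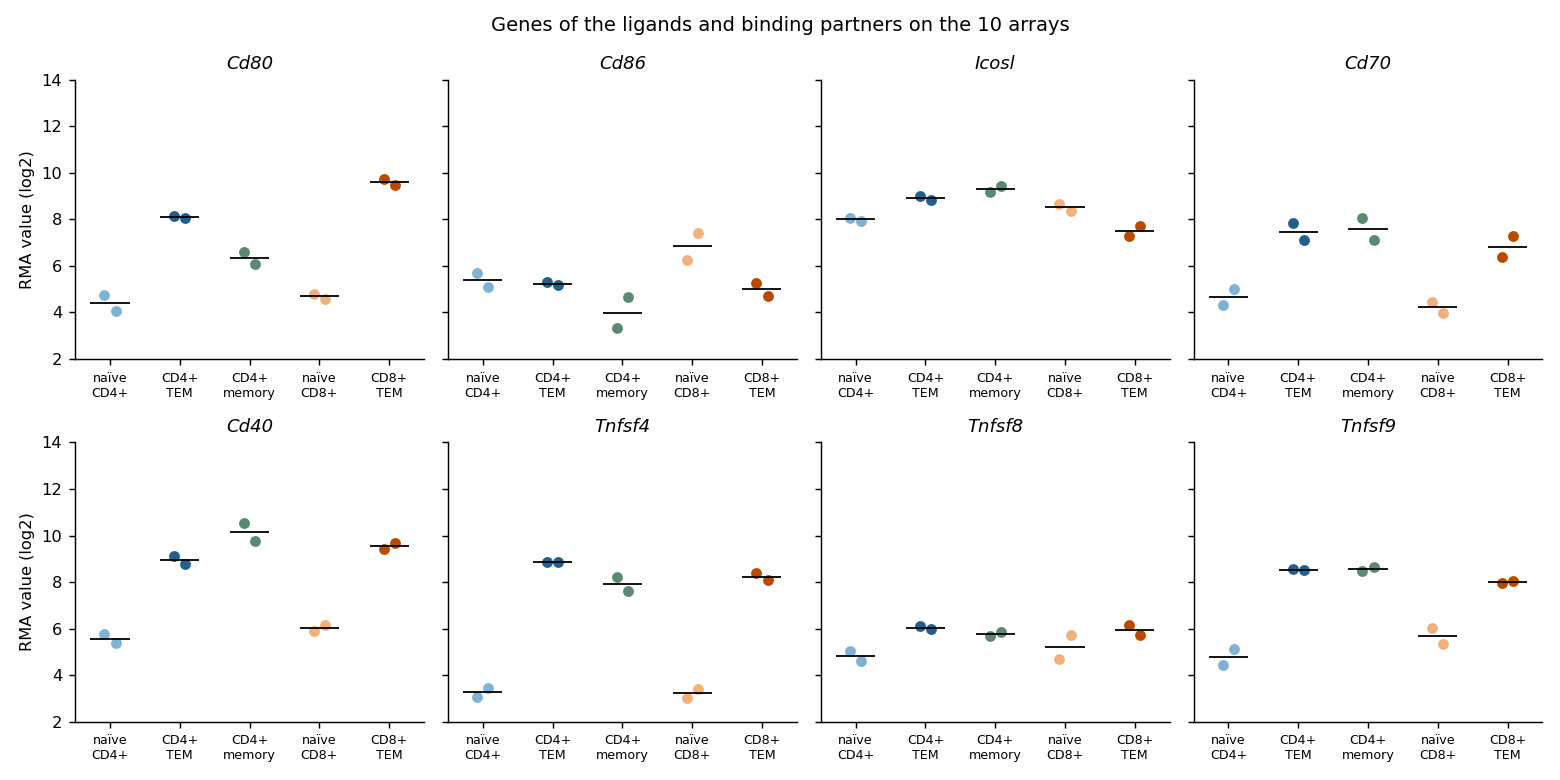
RMA values (log2, y axis) of the genes of 8 ligands and binding partners on the 10 arrays, with 1 point per array and a line at each group mean. *Tnfsf4*, *Tnfsf9*, *Cd40*, *Cd70* and *Cd80* are higher on all cultured arrays than on the naïve arrays.

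Signalling genes downstream of the receptors were counted in the same way. Of 16 measured genes for TRAF adaptors and NF-κB, 5 rose and 3 fell in CD4+ TEM, 4 rose and 4 fell in CD8+ TEM and 5 rose and 4 fell in memory cells, beside 26.5%, 38.1% and 23.2% of all genes called in either direction. *Nfkb2*, a subunit of the non-canonical pathway, rose by 2.38 in CD4+ TEM (SE 0.14, adjusted p = 1.05e-05), 1.60 in CD8+ TEM (5.34e-05) and 2.62 in memory cells (9.03e-06). *Traf1*, an adaptor that 4-1BB recruits, rose by 1.89 in CD4+ TEM (2.44e-05), with 0.22 in CD8+ TEM (0.250), and the changes differed by 1.67 (0.00179). *Traf5*, an adaptor of OX40 and CD27, fell in CD4+ TEM (-2.81), CD8+ TEM (-3.65) and memory cells (-1.68), with adjusted p of 2.79e-05, 5.32e-06 and 0.000593. *Map3k14*, the kinase NIK, fell as well (-2.39, -2.52 and -1.98).

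Of 12 measured genes that act close to CD28, 1 rose and 3 fell in CD4+ TEM, 1 rose and 6 fell in CD8+ TEM, and 2 rose and 3 fell in memory cells, where 26.5%, 38.1% and 23.2% of all genes were called. *Akt1*, a kinase of the CD28 pathway, rose by 0.94 in CD4+ TEM (adjusted p = 0.00119) and 1.48 in CD8+ TEM cells (6.34e-05). *Prkcq*, which encodes protein kinase C theta, fell in both (-1.56, 9.93e-05, and -2.87, 3.08e-06). *Carmil2*, a scaffold that couples CD28 to downstream signalling, also fell in both (-1.01, 0.0146, and -3.10, 2.75e-05). The median of the 12 was -0.15 in CD4+ TEM and -0.64 in CD8+ TEM cells, against 0.02 and 0.06 over all genes.

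Other genes with a pattern like each receptor's over the 10 arrays were listed from 7572 genes (7573 for *Cd40lg* and *Tnfrsf8*) above 8 on at least 2 arrays. These correlations describe arrays from 5 groups and carry no test. *Tnfrsf4* was closest to *Slc2a3*, a glucose transporter (r = 0.998), and *Ccna2*, cyclin A2 (0.998). *Tnfrsf18* was closest to *Socs2* (0.997) and *Sdc4* (0.997), and *Tnfrsf9* to *Scpep1* (0.997) and *Pgm1* (0.997). *Cd27* was closest to *Jak1* (0.99), the kinase of cytokine receptors, and *Cd7* (0.99). *Cd28* was closest to *Trnt1* (0.97) and *Ibtk* (0.97), *Icos* to *Nadk* (0.98) and *Tmem39a* (0.96), *Cd40lg* to *Ormdl1* (0.97) and *Cotl1* (0.97), and *Tnfrsf8* to *Gnaz* (0.98) and *Uchl1* (0.98). Among the members, *Tnfrsf9* and *Tnfrsf18* had the highest correlation (0.99), and *Cd27* ran opposite to *Tnfrsf9* (-0.97).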

How the data were processed

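RNA of 10 samples was measured on whole-genome Affymetrix mouse arrays. RMA normalization was done by the authors with BRB-ArrayTools (version not given in the sources used here), and the deposited table holds log2 values from 1.68 to 14.86 without mean-centering. No raw intensities were used, and the number of arrays limits the precision. Groups were taken from titles and source names. Label entries on germinal centre B cells, Foxo1 status and a CRISPR-edited lymphoma line go against these and were set aside. The Foxo1 entry differs between the 2 arrays of CD4+ memory and of CD8+ TEM cells, and if it were true the means and spreads of these groups would mix genotypes.

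Of 45037 probe sets that are not controls, 34945 carried 1 gene symbol in the platform annotation, 932 carried several and 9160 were unnamed here. The Entrez identifiers of 34741 of these probe sets were found in the RefSeq table of GRCm38.p6, and their symbols were taken from it, changed or not. Each of 18193 genes was represented by its probe set of highest average signal. All arrays entered 1 linear model of group means, fitted with R 4.3.3, limma 3.58.1 and statmod 1.5.0 (5 residual degrees of freedom, empirical Bayes moderation), and p-values were adjusted by Benjamini-Hochberg over all genes of a comparison, with calls under 0.05. Levels are given as values per array, and SE comes from the fit, which was tested on simulated data. Tables and figures used pandas 2.3.3 and matplotlib 3.10.9.

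The members and gene lists were chosen with earlier results of these data known. Pdk1 was removed from the list of genes close to CD28 after its values were seen, because the symbol denotes another kinase in the annotation. All 8 members and all ligands are named. Of the other lists, counts are given and at most 3 called genes a direction with the largest change, and for likeness the 2 genes with the highest r over the arrays among genes above 8 on at least 2 arrays. Alternatives were the choice of probe set, filters on low values and on variation (the study's limit of 0.01), normalization, the spread model, the groups in the fit, a replicate block and leaving out each array. Scaling over the genes tested was added after seeing the data.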

Additional observations from a re-analysis of the deposited data

Results flagged for a closer look

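The change from naïve to TEM cells differed between CD4+ and CD8+ cells for 4 of the 8 receptor genes by the interaction term of the limma fit. Of all genes 12.5% passed. The genes that passed depended on the probe sets: *Icos* passed with the mean of its probe sets (-0.90, adjusted p = 0.0261). In the fit of each probe set on its own, *Cd27* did not pass (1.31, 0.0600). *Cd28* fell in CD4+ cells and did not pass in CD8+ cells (-0.06), a difference of -1.40 (adjusted p = 0.0133). With array medians over the genes tested subtracted it was lower in CD8+ cells too (-0.59, 0.0314). *Cd27* fell in both, by 1.31 less in CD4+ cells (difference 1.31, adjusted p = 0.0485), a call lost in 9 of 10 fits without 1 array and with quantile normalization repeated (0.0518), array medians subtracted (0.0619) or only the groups compared (0.0563). *Cd40lg* fell in CD4+ cells from a higher naïve level, a difference of -0.87 (adjusted p = 0.0347), at levels of 4.24 to 5.40 that a filter on low values removes. This call was lost without any of 7 arrays and with a spread that depends on the level (0.0663). *Tnfrsf4* rose in both, by 1.20 more in CD4+ cells (adjusted p = 0.00807). Each of these 4 genes also differed between the naïve groups, with naïve CD8+ minus naïve CD4+ of -1.0 for *Cd28*, 1.14 for *Cd27*, -1.01 for *Cd40lg* and 1.03 for *Tnfrsf4*, and none passed the test between the TEM groups, where the values were 0.40, -0.18, -0.15 and -0.17. The naïve arrays enter both the change and the naïve comparison.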

How the results depend on the processing

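The rises of *Tnfrsf4* and *Tnfrsf18* and the fall of *Cd27* in all 3 cultured groups, and the fall of *Cd28* and *Cd40lg* in the CD4+ groups, kept their direction and passed the test under every alternative that kept the gene, as did the rise of *Tnfrsf9* except by probe set 1421481_at. Of the 8 genes, 6 passed in CD4+ TEM when any array was left out, 7 in memory cells, 5 to 6 in CD8+ TEM, 4 to 6 between the naïve groups, 0 between the TEM groups, 1 to 4 for the difference between lineages and 1 to 2 between CD4+ TEM and memory cells. The last count was 2 with medians over the genes tested subtracted and 0 with only the groups compared, where *Icos* gave adjusted p = 0.0639. The causes were not tested.

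Array medians over the genes tested differed by 0.59 (CD4+ TEM), 0.53 (CD8+ TEM), 0.41 (memory), 0.18 (TEM minus memory), 0.28 (between naïve groups) and 0.22 (between TEM groups), while the medians over all probe sets moved by at most 0.07. Subtracting the former turned *Icos* (-0.12) and *Tnfrsf8* (-0.19) in CD4+ TEM, *Cd40lg* (-0.50) in CD8+ TEM, *Tnfrsf8* (-0.29) in memory cells, *Cd40lg* (-0.10) and *Tnfrsf9* (-0.10) between TEM and memory cells, and *Icos* (-0.11) and *Tnfrsf8* (-0.27) between naïve groups, and ended the CD8+ TEM calls of *Icos* (0.08, adjusted p = 0.698) and *Tnfrsf8* (0.37, 0.0668). It made *Cd28* (-0.59, 0.0314) and *Cd40lg* (-0.50, 0.0228) pass as lower in CD8+ TEM, *Cd27* (-0.95, 0.0466) between TEM and memory cells and *Tnfrsf18* (-0.76, 0.0307) between naïve groups. Of all genes it called 11713, 10756 and 6644 in CD4+ TEM, CD8+ TEM and memory cells, with 15.7%, 22.5% and 23.1% of them higher, against 4825, 6926 and 4227 genes with 61.8%, 54.9% and 57.9% higher. Between TEM and memory cells 39.7% were higher against 70.3%, between naïve groups 33.3% of 5679 against 67.6% of 3733, and between TEM groups 27.4% against 61.8%. Quantile normalization over the genes tested gave 42.9% higher in CD4+ TEM, 44.7% in memory cells, 51.7% for the difference between lineages (against 64.1%), 59.5% between TEM and memory cells, 48.1% between naïve groups and 48.5% between TEM groups, and turned *Cd40lg* in CD8+ TEM (-0.21) and *Tnfrsf8* in memory cells (-0.070). With only the groups compared, 223 genes passed between TEM and memory cells (1005 otherwise), of which 80.7% were higher.

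Further values turned. Subtracting medians over all probe sets gave *Tnfrsf8* -0.0063 between naïve groups and *Tnfrsf18* 0.0062 between TEM groups. The mean of all probe sets gave *Icos* -0.51 between naïve groups (adjusted p = 0.0403) and *Tnfrsf9* 0.25 between TEM groups. Single probe sets gave -0.037 for *Cd28* (1417597_at) and -0.016 for *Tnfrsf9* (1421481_at) between TEM and memory cells, -0.76 and -0.95 for *Icos* and 0.12 for *Tnfrsf9* (1428034_a_at) between naïve groups, and 1.08 for the latter between TEM groups. Leaving out each array gave ranges of -0.23 to 0.11 for *Cd28* and -0.077 to 0.14 for *Cd40lg* in CD8+ TEM, -0.28 to 0.0099 for the lineage difference of *Icos*, -0.032 to 0.27 for *Tnfrsf8* in memory cells, -0.050 to 0.21 for *Cd40lg* and -0.14 to 0.022 for *Tnfrsf18* between TEM and memory cells, -0.073 to 0.11 for *Tnfrsf8* between naïve groups, and -0.38 to 0.024 for *Cd27* and -0.10 to 0.015 for *Tnfrsf18* between TEM groups.

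Counts of all genes fell by more than 1.5 times without some arrays. They were 3185 in CD4+ TEM without naïve CD4+ replicate 2, 2727 and 2575 in memory cells and 2279 and 2109 between naïve groups without naïve CD4+ replicate 1 and 2, 490 and 542 between TEM and memory cells without CD4+ TEM replicate 1 and 2, 982 to 1518 of 2278 for the difference between lineages, and 219 to 464 of 1041 between TEM groups.

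Whether arrays with the same replicate number are paired is not known from the labels. The difference between the replicates of a group, correlated over genes between groups, gave values from -0.04 to 0.03. Such values cannot exclude a pairing, because array noise can hide a shared effect. With the replicate block, 4656, 6814, 2055, 4047, 908, 3550 and 885 genes passed for CD4+ TEM, CD8+ TEM, the difference between lineages, memory cells, TEM against memory, naïve CD8+ against CD4+ and CD8+ TEM against CD4+ TEM, and 6, 6, 3, 7, 1, 5 and 0 of the 8 members. The call lost was the lineage difference of *Cd40lg* (-0.87, adjusted p = 0.0520).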

Other observations

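Among the inhibitory relatives of CD28, *Btla* fell in every cultured group, with log2 differences of -2.87 in CD4+ TEM (SE 0.16, adjusted p = 9.28e-06), -2.57 in CD8+ TEM (1.12e-05) and -1.97 in memory cells (9.28e-05). *Pdcd1*, the gene of PD-1, rose by 1.90 in CD8+ TEM (0.00311) and fell by 1.38 in memory cells (0.0247), with -0.13 in CD4+ TEM (0.847), and the CD4+ and CD8+ changes differed by -2.03 (0.0358). *Ctla4* differed by 1.80 in CD4+ TEM (0.186) and 1.60 in CD8+ TEM cells (0.204) and did not pass.

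Of 16 other measured TNF receptors, 6 rose and 1 fell in CD4+ TEM, 5 rose and 2 fell in CD8+ TEM and 4 rose and 1 fell in memory cells, beside 26.5%, 38.1% and 23.2% of all genes called in either direction. *Tnfrsf25*, the death receptor DR3, fell by 2.50 in CD4+ TEM (adjusted p = 0.00669), 2.53 in CD8+ TEM (0.00401) and 2.10 in memory cells (0.0178). *Eda2r* rose by 1.34 (0.00131), 3.05 (1.04e-05) and 0.78 (0.0215), and *Fas* by 1.58 in CD8+ TEM cells (0.000596). *Tnfrsf13c*, the BAFF receptor that B cells carry, rose by 3.27 in CD4+ TEM (0.000333) and 4.09 in memory cells (0.000126) and differed by 1.0 in CD8+ TEM cells (0.0632). Some but not all of the measured B cell markers were called higher in each of these groups. The part of B cell RNA in the *Tnfrsf13c* values was not tested.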
